A study of Homo sapiens with 6 samples.

Results

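The 10 chemokine genes CXCL1, CXCL2, CXCL3, CXCL5, CXCL8, CXCL10, CXCL11, CXCL16, CCL2 and CCL5 were followed in renal cancer cells depleted of METTL3. They were picked by gene symbol from 61860 gene rows. CCL5 and CXCL16 were picked because they are lower in the depleted cells, so their difference is described here and not tested. The other 8 were picked by name, with the fall of CXCL5 already known. Of these 8, 7 had enough reads to be among the 18740 genes tested. CXCL10 did not.

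The cells were 786-O, a long-established human clear cell kidney cancer line that has lost the tumour suppressor VHL. One set of 3 libraries came from cells stably expressing a short hairpin RNA (shRNA) against METTL3 (shMETTL3), and the other 3 from cells stably expressing a control shRNA (shCon). METTL3 is the catalytic subunit of the enzyme that writes N6-methyladenosine (m6A) on mRNA. Total RNA was depleted of ribosomal RNA and sequenced, at 100534896 to 101473388 counts per shMETTL3 library and 102420127 to 103624456 per shCon library. The libraries are called A, B and C after the letters of the deposited columns, which no label ties to the replicate numbers. The shMETTL3 columns carry only an unexplained number and were assigned by elimination, and no label says how many hairpin sequences were used. No label says that the libraries came from separate cultures, so each p-value is set by the spread among libraries that may be technical repeats. METTL3 itself had 7.08, 6.46 and 8.01 FPKM (fragments scaled to transcript length and library size) in shMETTL3 libraries, against 22.88, 24.91 and 25.04 FPKM in shCon libraries. It fell by 1.80 on the log2 scale (SE 0.08, edgeR adjusted p = 1.45e-07), and its exons overlap those of TOX4 on the opposite strand.

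The labelled cell type was checked against markers. Of 10 renal markers, 9 were above 1 FPKM in every library, with PAX8, a renal lineage factor, at a mean of 98.2 FPKM in shMETTL3 and 77.9 FPKM in shCon. The leukocyte markers PTPRC and CD3E were at or below 0.03 FPKM in all 6 libraries, and 5 of 10 leukocyte markers stayed under 0.1 FPKM. The leukocyte list summed to 77.0 to 85.8 FPKM in shMETTL3 and 41.0 to 48.6 FPKM in shCon, nearly all of it CD68, a lysosomal protein at 79.3 FPKM in shMETTL3 and 43.2 FPKM in shCon. All 6 endothelial markers were under 0.1 FPKM, and the 7 fibroblast markers summed to 0.42 to 0.92 FPKM in shMETTL3 and 1.17 to 1.65 FPKM in shCon.

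Chemokines are small secreted proteins that bind G protein-coupled receptors and steer the migration of white blood cells. CXCL1, CXCL2, CXCL3, CXCL5 and CXCL8 carry a glutamate-leucine-arginine (ELR) motif and attract neutrophils through CXCR2. CXCL10 and CXCL11 are induced by interferon and attract T cells through CXCR3, CCL2 attracts monocytes through CCR2, and CCL5 attracts T cells and monocytes. CXCL16 is made as a membrane-bound ligand of CXCR6 that proteases can release. Many of these genes are switched on by NF-kB, and several of their mRNAs carry AU-rich elements that make them short-lived.

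The promoter sequences of the CXC genes are shown because 7 of the 10 members, all on chromosome 4, have an entry in the RefSeq promoter table (build GRCh38.p14), and all 7 hold the same NF-kB-type letters. Each line runs 5′ to 3′ and ends at the base before the RefSeq transcript start, with 130 bases shown and 230 for CXCL10. Capitals mark GGAATTTCC in either orientation (it reads GGAAATTCC in CXCL10 and CXCL11) and, in CXCL10 alone, the interferon-stimulated response element (ISRE) type.
CXCL8, chr4:73740439-73740568, plus strand: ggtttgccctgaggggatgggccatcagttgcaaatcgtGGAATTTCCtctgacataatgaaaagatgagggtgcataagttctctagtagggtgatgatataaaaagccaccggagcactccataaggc
CXCL1, chr4:73869263-73869392, plus strand: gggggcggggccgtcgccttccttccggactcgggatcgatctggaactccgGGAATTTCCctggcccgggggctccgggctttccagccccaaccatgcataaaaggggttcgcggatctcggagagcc
CXCL2, chr4:74099196-74099325, minus strand: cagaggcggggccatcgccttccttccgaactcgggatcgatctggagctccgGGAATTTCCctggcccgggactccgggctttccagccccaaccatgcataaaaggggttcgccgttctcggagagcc
CXCL3, chr4:74038690-74038819, minus strand: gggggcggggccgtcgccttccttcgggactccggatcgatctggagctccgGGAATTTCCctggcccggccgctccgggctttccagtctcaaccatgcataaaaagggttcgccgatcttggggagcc
CXCL5, chr4:73998678-73998807, minus strand: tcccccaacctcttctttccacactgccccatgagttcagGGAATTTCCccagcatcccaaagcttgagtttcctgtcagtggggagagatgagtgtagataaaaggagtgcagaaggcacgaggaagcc
CXCL10, chr4:76023498-76023727, minus strand: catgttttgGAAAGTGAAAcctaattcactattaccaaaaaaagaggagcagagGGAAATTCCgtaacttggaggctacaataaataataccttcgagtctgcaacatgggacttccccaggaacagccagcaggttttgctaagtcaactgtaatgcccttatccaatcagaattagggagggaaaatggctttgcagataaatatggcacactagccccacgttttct
CXCL11, chr4:76036071-76036200, minus strand: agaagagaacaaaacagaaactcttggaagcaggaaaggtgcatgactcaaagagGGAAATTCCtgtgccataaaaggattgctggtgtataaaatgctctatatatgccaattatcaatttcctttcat

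GGAATTTCC or its reverse complement lay within 250 bases before the start in 7 of 7 matched members, against 145 of 35116 RefSeq promoters, or 0.413%. These letters were chosen after the sequences had been seen, so the contrast is a description. The match began 78 bases before the start in CXCL1 and CXCL3, 77 in CXCL2, 90 in CXCL5, 91 in CXCL8, 75 in CXCL11 and 176 in CXCL10. CXCL1, CXCL2 and CXCL3 are near-copies over the whole stretch, at 92.4% identity between CXCL1 and CXCL2, 91.5% between CXCL1 and CXCL3 and 87.9% between CXCL2 and CXCL3, so their matches are not separate observations. The ISRE type, searched on both strands like the others, was found in CXCL10 only, 221 to 212 bases before its start, and in 3.02% of all promoters. The AP-1-type letters TGANTCA were found in CXCL8 (137 to 131 bases before the start) and CXCL11 (87 to 81 bases before), and in 6.57% of all promoters. No match overlapped a match of another motif. Of the other genes whose promoter holds GGAATTTCC, 58 were tested, of which 11 were higher and 9 lower in shMETTL3, with a median log2 fold change of 0.00, so that 34.5% were called against 33.5% of all genes.

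**Figure D1:**
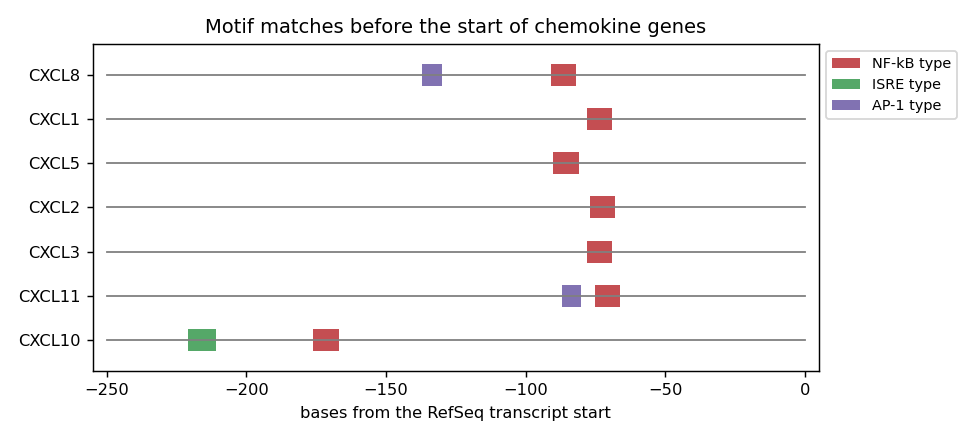
Motif matches in the 250 bases before the RefSeq transcript start of 7 chemokine genes (x axis, bases from the start; 1 row per gene). Boxes are matches to the NF-kB-type, interferon-response (ISRE) type and AP-1-type letters. The NF-kB-type box lies within 91 bases of the start in 6 of 7 genes and further out, at 176 bases, in CXCL10.

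The cells expressed a neutrophil-type chemokine set led by CXCL8. Ranked by mean FPKM in shCon, CXCL8 came first at 594 ± 31.6, then CCL2 at 200 ± 33.3, CXCL1 at 94.1 ± 11.0, CCL5 at 84.5 ± 21.0 and CXCL5 at 83.9 ± 3.33 (SD, n = 3). The last 3 did not differ beyond their spread. Below them stood CXCL2 at 36.1 ± 3.71, CXCL3 at 16.4 ± 0.862 and CXCL16 at 8.52 ± 2.17 FPKM, while CXCL11 at 0.300 ± 0.101 and CXCL10 at 0.0400 FPKM were near the floor. CXCL8 ranked 212 among all 61860 rows in shCon, and CXCL10 ranked 22132. In shMETTL3 the order was CXCL8 at 468 ± 149, CCL2 at 181 ± 77.1, CXCL5 at 54.6 ± 7.01, CXCL1 at 53.5 ± 22.5, CXCL2 at 24.2 ± 10.7, CCL5 at 17.3 ± 2.76, CXCL3 at 9.93 ± 5.10 and CXCL16 at 2.71 ± 0.456 FPKM. CCL5 thus stood at about the level of CXCL1 and CXCL5 in shCon and below both in shMETTL3.

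**Figure D2:**
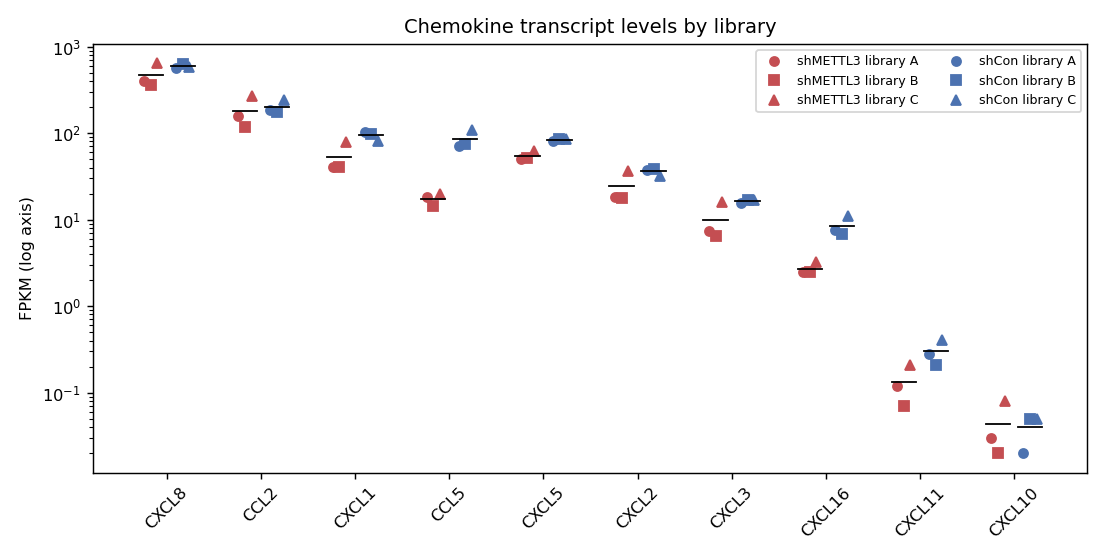
FPKM of each chemokine gene (log axis) in shMETTL3 libraries (red, left of each pair) and shCon libraries (blue, right). Circles, squares and triangles are libraries A, B and C, and lines are group means. For CCL5 the shMETTL3 libraries sit at 14.3 to 19.7 FPKM and the shCon libraries at 70.73 to 108.67 FPKM, with no overlap, while the red triangle stands above the other red points in the ELR genes and CCL2.

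The summed FPKM of the 10 genes was 700.3, 612.5 and 1123.0 in shMETTL3 libraries A, B and C, against 1071.0, 1125.0 and 1158.0 in shCon libraries. Library C of shMETTL3 lay inside the shCon range and the other shMETTL3 libraries below it. The 5 ELR genes made up 75.5% ± 2.22 of that sum in shMETTL3 and 73.8% ± 4.21 in shCon, a difference smaller than the spread. The share of CCL5 was 2.57%, 2.33% and 1.75% in shMETTL3, against 6.60%, 6.59% and 9.38% in shCon, with no overlap. CXCL8 alone was 57.9% ± 1.16 of the sum in shMETTL3 and 53.1% ± 2.83 in shCon.

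CCL5 and CXCL16, the genes chosen for their falls, were lower in every shMETTL3 library. CCL5 (ENSG00000271503, chromosome 17, 35871491 to 35880793 on the minus strand of GRCh38 by GENCODE 29) had 18.01, 14.30 and 19.70 FPKM in shMETTL3, against 70.73, 74.14 and 108.67 FPKM in shCon. The highest shMETTL3 library stood well below the lowest shCon library. The counts behind these levels were 1712, 1365 and 1892 in shMETTL3 and 6894, 7188 and 10569 in shCon, and the fitted log2 fold change was −2.17 (SE 0.15), a change of −77.8%. In bulk RNA, fewer cells that make a transcript and less of it in each cell cannot be told apart.

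CXCL16 (ENSG00000161921, chromosome 17, 4733526 to 4739922, minus strand) had 2.45, 2.45 and 3.24 FPKM in shMETTL3, against 7.68, 6.89 and 10.98 FPKM in shCon. Again the groups did not overlap, and library C was the highest of its group in both. The fitted log2 fold change was −1.45 (SE 0.13), a change of −63.3%. Its exons overlap those of MED11, a Mediator subunit on the opposite strand, and reads cannot be divided between them if they were counted without strand. MED11 had a mean of 5.93 CPM (counts scaled to library size) in shMETTL3 and 7.12 CPM in shCon, and did not pass the test (log2 fold change −0.26, SE 0.12, edgeR adjusted p = 0.120).

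Genes next to CCL5 and CXCL16 differed in direction. TAF15, 6876 bases from CCL5, did not pass (log2 fold change 0.03, SE 0.10, edgeR adjusted p = 0.841). RDM1, 37273 bases from CCL5, rose (log2 fold change 1.34, SE 0.22, edgeR adjusted p = 0.00072), and HEATR9 had at most 2 counts. ZMYND15, 93 bases from CXCL16, had a log2 fold change of −0.58 (SE 0.33, edgeR adjusted p = 0.194). ARRB2, which encodes the receptor-desensitising beta-arrestin 2 and lies 12027 bases from CXCL16, fell by 0.61 on the log2 scale (SE 0.10, edgeR adjusted p = 0.000588). Farther from CXCL16 but within 150 kb, PELP1 (−0.25) and PSMB6 (−0.45) fell, while PLD2 (0.56) and MINK1 (0.36) rose (edgeR adjusted p = 0.00179 to 0.0239).

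Among 11387 protein-coding genes, those whose profile over the 6 libraries lay closest to CCL5 were NPPB, ADAMTS15, METTL3 and CXCL16, at Euclidean distances of 0.430, 0.465, 0.636 and 0.931 between centred log2 CPM values. NPPB, which encodes the natriuretic peptide BNP, had 3.49, 3.10 and 5.27 CPM in shMETTL3 and 16.6, 16.4 and 20.0 CPM in shCon. Closest to CXCL16 were DOK3 at 0.194, BMPER at 0.261, MGAT5B at 0.321 and SPTBN5 at 0.325. All 6 libraries and both groups enter these distances, so they mostly reflect the size of the group difference.

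The ELR chemokines were lower in shMETTL3 libraries A and B than in shCon. Library C was above libraries A and B for each of them, to the smallest degree for CXCL5. CXCL5 (chromosome 4, 73995642 to 73998779, minus strand) was low in all 3. It had 49.84, 51.27 and 62.64 FPKM in shMETTL3, against 80.18, 85.11 and 86.51 FPKM in shCon, with no overlap. It fell by 0.51 on the log2 scale (SE 0.08, edgeR adjusted p = 0.000711), a fall already known when the genes were chosen.

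CXCL1 (chromosome 4, 73869393 to 73871242, plus strand) had 40.50, 40.48 and 79.43 FPKM in shMETTL3, against 103.44, 96.92 and 81.97 FPKM in shCon. Library C of shMETTL3 was almost at the level of the lowest shCon library, and on the CPM scale the groups overlapped. CXCL1 fell by 0.72 on the log2 scale (SE 0.20, edgeR adjusted p = 0.0129). That call was lost in DESeq2 (adjusted p = 0.0918), with log2(FPKM + 1) without a filter (limma adjusted p = 0.0998), and in edgeR without shMETTL3 library A (adjusted p = 0.0707), shMETTL3 library B (adjusted p = 0.0638) or shCon library B (adjusted p = 0.0506).

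CXCL3 (chromosome 4, 74036589 to 74038807, minus strand) had 7.45, 6.54 and 15.79 FPKM in shMETTL3, against 15.37, 16.74 and 16.96 FPKM in shCon. Here shMETTL3 library C lay within the shCon range and libraries A and B below it. Its log2 fold change of −0.60 (SE 0.22) missed the threshold of 0.05 (edgeR adjusted p = 0.0514), and it passed in 8 of 16 alternatives. CXCL2 (chromosome 4, 74097035 to 74099293, minus strand) had 18.44, 17.58 and 36.59 FPKM in shMETTL3, against 37.54, 38.84 and 31.87 FPKM in shCon. The log2 fold change of CXCL2 was −0.42 (SE 0.21, edgeR adjusted p = 0.131), with the groups overlapping through library C.

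CXCL8 (chromosome 4, 73740506 to 73743716, plus strand), which encodes interleukin 8, had 404.09, 362.30 and 638.52 FPKM in shMETTL3, against 569.55, 629.69 and 582.67 FPKM in shCon. Library C of shMETTL3 was the highest of all 6 libraries, and libraries A and B were the lowest. Its log2 fold change was −0.21 (SE 0.16, edgeR adjusted p = 0.338).

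CXCL1, CXCL2 and CXCL3 are close relatives, with 90.8% to 94.4% identity between their coding sequences. Yet only 0.293%, 2.27% and 2.30% of their 75-base windows occur in a transcript of another protein-coding gene. Pseudogenes and noncoding transcripts were not searched. By this count, ambiguous reads could move a small part of their counts among them. CXCL5 and CXCL8 had 0.122% and 0% of such windows, and CCL5 had 5.11%, shared with 11 genes outside the family.

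The monocyte attractant CCL2 (chromosome 17, 34255218 to 34257203, plus strand) had 159.37, 117.46 and 266.87 FPKM in shMETTL3, against 186.19, 176.48 and 238.31 FPKM in shCon. Library C was the highest in both groups, and the groups overlapped. The log2 fold change of CCL2 was −0.04 (SE 0.21, edgeR adjusted p = 0.910).

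Of the CXCR3 ligands, CXCL10 (chromosome 4, 76021117 to 76023497, minus strand) had 3, 2 and 7 counts in shMETTL3 and 2, 5 and 5 in shCon, too few for a test. CXCL11 (chromosome 4, 76033682 to 76041415, minus strand) had 14, 8 and 26 counts in shMETTL3, against 35, 26 and 50 in shCon. Its log2 fold change was −1.07 (SE 0.39, edgeR adjusted p = 0.0489), with overlap between the groups. Only its shCon libraries gave it enough reads to be tested, so its call is a description. This call was lost in DESeq2 (adjusted p = 0.0705), with FPKM values without a filter (limma adjusted p = 0.137), and in edgeR without shMETTL3 library A (adjusted p = 0.140) or B (adjusted p = 0.193), or shCon library A (adjusted p = 0.0804) or C (adjusted p = 0.173). CXCL9, the remaining CXCR3 ligand, had 0, 4 and 0 counts in shMETTL3 and 1, 3 and 4 in shCon.

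Over the 7 tested members not chosen for their falls, 3 were lower (CXCL1, CXCL5 and CXCL11), none was higher and 4 did not pass. Among all 18740 genes tested, 16.9% were called lower and 16.5% higher (33.5% in either direction). The median log2 fold change was −0.51 over these 7 members and −0.00 over all genes tested. CXCL11 was among the genes tested only through its shCon libraries. The fall of CXCL5 was already known when the genes were chosen. Neither call is therefore a test of the members. By CPM, 1 of the 7, CXCL5, had all shMETTL3 libraries below all shCon libraries, as had 23.9% of the genes tested.

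**Figure D3:**
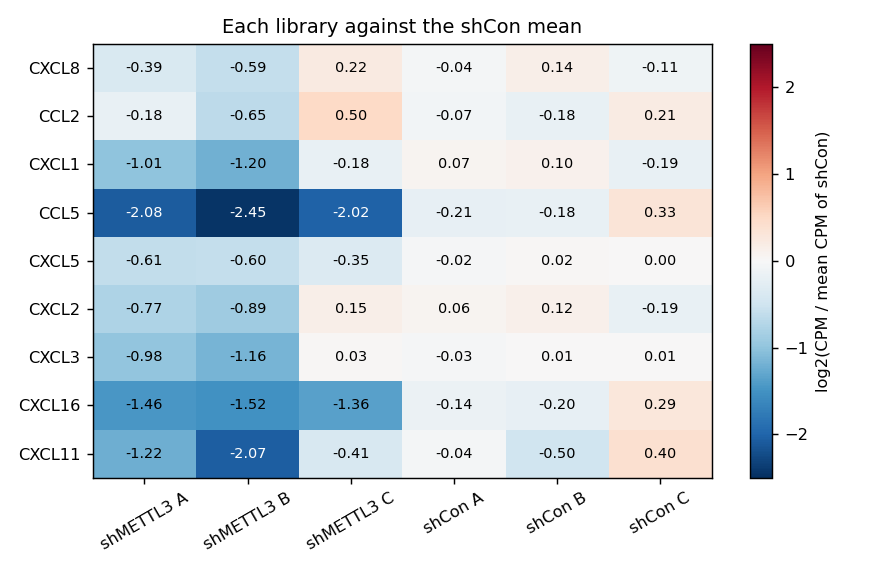
Each library's CPM against the shCon mean (log2, colour and printed value) for the 9 tested members, shMETTL3 libraries at left and shCon libraries at right, genes in order of shCon FPKM. CCL5 and CXCL16 are at −1.36 or lower in all 3 shMETTL3 libraries, whereas CXCL2, CXCL3, CXCL8 and CCL2 are below 0 in shMETTL3 libraries A and B and above 0 in library C.

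Within shMETTL3, library C was the highest by CPM for every tested member, and libraries A and B also differed from each other. Against the shCon mean, for example, log2 CPM of CCL2 was −0.18 in library A and −0.65 in library B. In library C, 6 of the 9 tested members (CXCL1, CXCL2, CXCL3, CXCL8, CXCL11 and CCL2) were at least 1.5 times as high by CPM as in both other shMETTL3 libraries, a ratio chosen after the values were seen. Among all tested genes 387, or 2.07%, met that condition in this library, and no member met it in any of the other 5 libraries, where 1.12% to 3.01% of genes did. The CPM of library C over the mean of A and B in shMETTL3 was 2.14 for CXCL3, 1.98 for CXCL2, 1.90 for CXCL1, 1.86 for CCL2 and 1.63 for CXCL8, whereas it was 1.19 for CXCL5, 1.17 for CCL5 and 1.10 for CXCL16. In shCon the same ratio was 1.01, 0.822, 0.827, 1.26 and 0.894 for the first 5 genes, and 1.00, 1.44 and 1.37 for CXCL5, CCL5 and CXCL16.

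Of 24 tested upstream cytokines and receptors, TNF, IL6 and CSF3 also met that 1.5-fold condition in shMETTL3 library C. TNF, looked at after its values were seen, had 186, 157 and 426 counts in shMETTL3, against 226, 215 and 162 in shCon. IL6 in library C was 1.65 times the mean of A and B in shMETTL3 and 0.730 times in shCon, and the granulocyte factor CSF3, also looked at after its values were seen, 4.39 times in shMETTL3 and 0.553 times in shCon. Of the NF-kB module (20 genes) and the interferon factors (22 tested), none met the 1.5-fold condition. In the NF-kB module, TNFAIP3, NFKBIZ and NFKBIA in library C were 1.51, 1.35 and 1.10 times the mean of A and B in shMETTL3. In shCon the same ratios were 0.979, 0.81 and 1.00. Of the 5 tested other ligands, CCL11, CCL20 and CCL27 met the 1.5-fold condition in shMETTL3 library C, and CCL11 and CCL27 also met it in shCon library C. The part of these cytokines in the chemokine levels was not tested.

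Without shMETTL3 library C, all 7 tested members not chosen for their falls were called lower, against 17.4% of 19142 genes in that fit. CXCL1 then fell by 1.10 on the log2 scale (SE 0.11, edgeR adjusted p = 8.77e-06) and CXCL3 by 1.06 (SE 0.10, edgeR adjusted p = 9.6e-06). CXCL2 fell by 0.82 (SE 0.11, edgeR adjusted p = 8.35e-05), CXCL5 by 0.60 (SE 0.08, edgeR adjusted p = 0.000115) and CXCL8 by 0.48 (SE 0.11, edgeR adjusted p = 0.00324). CXCL11 had −1.57 (SE 0.43, edgeR adjusted p = 0.0114) and CCL2 −0.39 (SE 0.13, edgeR adjusted p = 0.0346). CCL5 and CXCL16 were at −2.25 (SE 0.16) and −1.49 (SE 0.15), close to their values with all libraries. Library C was singled out because most of these members were high in it, and leaving it out lowers their shMETTL3 means. The calls and p-values of this fit are therefore a description and not a test. No label gives a reason to leave library C out, and without shMETTL3 library A or B only 1 of the 7, CXCL5, was called.

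**Figure D4:**
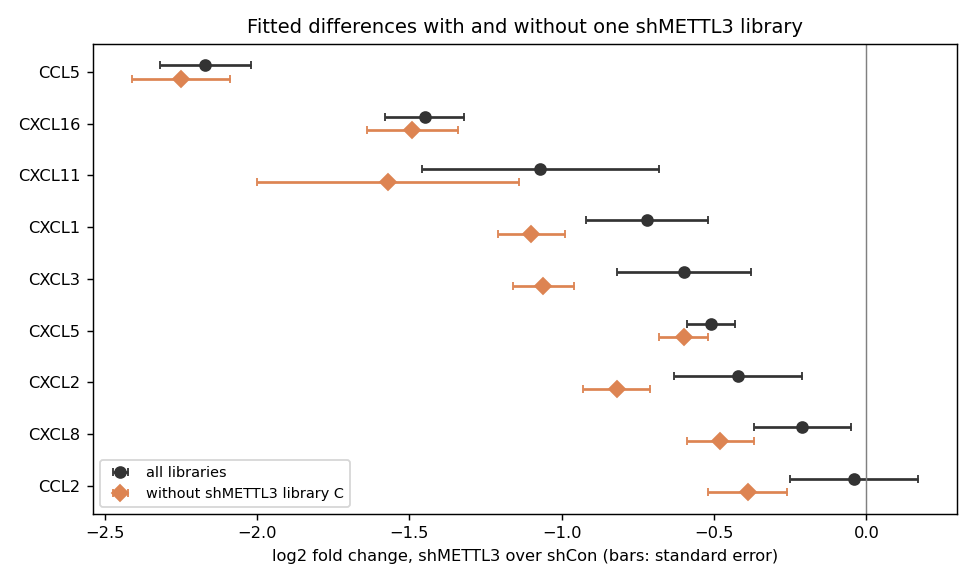
Fitted log2 fold change, shMETTL3 over shCon, of the 9 tested members, with all libraries (black circles) and without shMETTL3 library C (orange diamonds). Bars are standard errors. CCL5 and CXCL16 stay near −2.17 and −1.45, while CXCL1, CXCL2, CXCL3, CXCL8, CXCL11 and CCL2 move left.

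AU-rich pentamers (ATTTA) in the 3′ UTR numbered 11 in CXCL5, 10 in CXCL2, 9 in CXCL8, 7 in CXCL3 and 5 in CXCL1. CXCL16, CXCL10, CXCL11 and CCL2 had 1 each and CCL5 had none, against a median of 1 over 18885 genes. Per kilobase, CXCL2 had 13.9, CXCL3 10.4, CXCL8 7.19, CXCL1 7.08 and CXCL5 5.51, against 2.26 over all 3′ UTRs pooled. The longer form TATTTAT occurred 8 times in CXCL2, 4 times in CXCL1 and CXCL8, 3 times in CXCL3 and CXCL5, and in none of the other members, while 28.9% of genes held at least 1. Of the 5 members with 5 or more ATTTA, CXCL1, CXCL2, CXCL3 and CXCL8 met the 1.5-fold condition in shMETTL3 library C, and CXCL5, the least dense per kilobase of the 5, did not. Of the tested members with 1 or none, CXCL11 and CCL2 met it, and CCL5 and CXCL16 did not.

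The letters GGACT, the core in which METTL3 most often methylates adenosine, occurred 4 times in the CXCL16 transcript and once each in CXCL2, CXCL3 and CXCL10, and were not found in CCL5, CXCL1, CXCL5, CXCL8, CXCL11 or CCL2. Over all genes 89.1% held at least 1, with a median of 3 in transcripts that are mostly longer. m6A itself was not measured in these data.

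The members on chromosome 4 lie near each other. CXCL3 and CXCL5 are 37.8 kb apart, CXCL2 and CXCL3 58.2 kb, CXCL1 and CXCL8 126 kb, and CXCL10 and CXCL11 10.2 kb. Their cluster neighbours CXCL6, PF4, PF4V1 and PPBP had at most 2 counts in any library. On chromosome 17, CCL7 had 0, 1 and 1 counts in shMETTL3 and 2, 1 and 8 in shCon, and CCL8, CCL13 and CCL1 had none.

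CCL11, an eosinophil attractant 28465 bases from CCL2, had 7, 8 and 26 counts in shMETTL3, against 65, 64 and 255 in shCon. The groups did not overlap, and library C was the highest in each. It fell by 3.07 on the log2 scale (SE 0.57, edgeR adjusted p = 0.00149), and by 2.12 without shCon library C. Like CXCL11, CCL11 was among the genes tested only through its shCon libraries, so its p-value is a description.

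Few other chemokine genes were expressed. Of 36 other ligands, 31 had at most 10 counts in every library, 13 of them none at all, and 5 were tested. CCL11, tested only through its shCon libraries, fell, CCL28 rose, and CX3CL1, CCL20 and CCL27 did not pass, at a median log2 fold change of −0.27. Thus 40.0% were called, against 33.5% of all genes tested. CCL28, a mucosal ligand of CCR10, averaged 5.73 ± 0.281 FPKM in shMETTL3 and 4.20 ± 0.285 FPKM in shCon (log2 fold change 0.53, SE 0.10, edgeR adjusted p = 0.00182). CX3CL1, like CXCL16 a membrane-bound chemokine, averaged 4.96 FPKM in shMETTL3 and 6.44 FPKM in shCon (log2 fold change −0.27, SE 0.11, edgeR adjusted p = 0.067).

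Among receptors that signal for these ligands, CXCR1, CXCR2, CXCR3, CXCR6, CCR1, CCR2 and CCR3 had few or no counts. CXCR1 had no counts, CXCR2 had 0, 4 and 2 in shMETTL3 against 7, 8 and 10 in shCon, and CXCR6 had 2, 12 and 4 in shMETTL3 against 2, 0 and 2 in shCon. CXCR3, CCR1, CCR2 and CCR3 had at most 2 counts in any library. Of 23 receptor genes 6 were tested, of which 3 rose, 1 fell and 2 did not pass, at a median log2 fold change of 0.34. The share called was 66.7%, against 33.5% of all genes tested.

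CXCR4, the receptor of CXCL12, had 173, 195 and 133 counts in shMETTL3, against 31, 37 and 20 in shCon, with no overlap. It rose by 2.64 on the log2 scale (SE 0.25, edgeR adjusted p = 3.25e-05). ACKR3, a scavenging receptor that takes up CXCL11 and CXCL12, had 49.05, 51.47 and 52.77 FPKM in shMETTL3, against 27.70, 27.18 and 16.57 FPKM in shCon. It rose by 1.16 (SE 0.16, edgeR adjusted p = 0.000226), and every shMETTL3 library was above every shCon library. Their ligand CXCL12 had 3, 5 and 6 counts in shMETTL3 and 3, 2 and 5 in shCon. CCRL2, which binds chemerin without signalling, averaged 0.877 ± 0.184 FPKM in shMETTL3 and 1.52 ± 0.0252 FPKM in shCon and fell by 0.74 (SE 0.16, edgeR adjusted p = 0.004). CCR10, whose exons overlap CNTNAP1 on the opposite strand, rose by 0.34 (SE 0.11, edgeR adjusted p = 0.0332), a call lost with library size alone (adjusted p = 0.125), in all 3 limma fits on FPKM (adjusted p = 0.102 to 0.152), and without shMETTL3 library A or B or shCon library B or C (adjusted p = 0.0635 to 0.143).

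The NF-kB module holds the transcription factors, kinases and inhibitors known to control many chemokine genes. Here 5 of 20 genes fell and none rose, so that 25.0% were called, all of them lower. Among all genes tested, 33.5% were called in either direction, with 16.9% lower and 16.5% higher. The median log2 fold change of the module was −0.04. MAP3K14, the kinase NIK, averaged 23.0 ± 1.53 FPKM in shMETTL3 and 37.0 ± 1.39 FPKM in shCon and fell by 0.58 (SE 0.08, edgeR adjusted p = 0.000187). CHUK, the kinase IKK alpha, averaged 5.78 FPKM in shMETTL3 and 9.33 FPKM in shCon and fell by 0.59 (SE 0.09, edgeR adjusted p = 0.000522). Inhibitor genes NFKBIE and NFKBIB fell by 0.36 and 0.37, and the IKK subunit gene IKBKG by 0.23, a call lost in 5 of the 6 fits without 1 library (edgeR adjusted p = 0.0646 to 0.123) and with no filter on counts (edgeR adjusted p = 0.0642). NFKBIA, the feedback inhibitor and a common readout of NF-kB activity, averaged 146 ± 10.2 FPKM in shMETTL3 and 156 ± 3.56 FPKM in shCon (log2 fold change −0.02, SE 0.08, edgeR adjusted p = 0.899), and NFKB2 274 ± 21.7 FPKM in shMETTL3 and 266 ± 8.51 FPKM in shCon (log2 fold change 0.10, edgeR adjusted p = 0.383).

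Of the interferon factors and STATs, 22 of 24 were tested, of which 4 rose, 5 fell and 13 did not pass, with a median of 0.01. Calls made up 40.9% of them, against 33.5% of all genes tested. MYD88, the Toll-like receptor adaptor, averaged 5.92 ± 0.660 FPKM in shMETTL3 and 9.91 ± 0.306 FPKM in shCon and fell by 0.66 (SE 0.09, edgeR adjusted p = 0.000172). IRF7, an interferon regulatory factor, fell by 0.59 (SE 0.10, edgeR adjusted p = 0.000854) and IRF9 by 0.55 (SE 0.09, edgeR adjusted p = 0.000864). IFNGR2, a subunit of the interferon gamma receptor, rose by 0.33. IRF1, which is known to drive CXCL10 and CCL5, averaged 142 ± 25.9 FPKM in shMETTL3 and 171 ± 10.3 FPKM in shCon (log2 fold change −0.14, SE 0.10, edgeR adjusted p = 0.298).

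Upstream cytokines and their receptors went both ways, with 6 of 24 tested genes higher, 4 lower and a median of 0.07. Calls made up 41.7% of them, against 33.5% of all genes tested. IL1A, counted among the higher genes, had 26, 32 and 21 counts in shMETTL3, against 13, 9 and 11 in shCon. Only its shMETTL3 libraries gave IL1A enough reads to be tested, so its call is a description. IL6 had 23.49, 21.69 and 40.38 FPKM in shMETTL3, against 81.67, 79.58 and 64.67 FPKM in shCon. The groups did not overlap, although shMETTL3 library C was again the highest of its group, and IL6 fell by 1.35 (SE 0.17, edgeR adjusted p = 0.000164). IL6R fell by 0.67, while LTB, a lymphotoxin subunit that signals through LTBR, averaged 4.20 ± 1.05 FPKM in shMETTL3 and 1.81 ± 0.111 FPKM in shCon and rose by 1.18 (SE 0.17, edgeR adjusted p = 0.000303). IL1RAP, the shared subunit of interleukin 1 receptors, rose by 0.71 and OSMR, a receptor subunit for oncostatin M, by 0.38. OSMR lost its call in all 3 limma fits on FPKM, at a log2 difference of 0.18 (adjusted p = 0.0829 to 0.138). TNF had a log2 fold change of 0.47 (SE 0.29, edgeR adjusted p = 0.229).

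Of 14 factors that bind or act on AU-rich mRNAs, 2 rose, none fell and the median was 0.01. Thus 14.3% were called, all of them higher. Among all genes tested, 33.5% were called in either direction and 16.5% were called higher. ZFP36 (tristetraprolin), which speeds the decay of AU-rich cytokine mRNAs, averaged 48.0 ± 1.27 FPKM in shMETTL3 and 36.0 ± 0.286 FPKM in shCon and rose by 0.53 (SE 0.07, edgeR adjusted p = 0.000275). DUSP1, a phosphatase of the MAP kinases that act on tristetraprolin, averaged 276 ± 11.1 FPKM in shMETTL3 and 240 ± 6.81 FPKM in shCon and rose by 0.31 (SE 0.08, edgeR adjusted p = 0.0129), a call lost without shMETTL3 library B, shCon library B or shCon library C (edgeR adjusted p = 0.0503 to 0.0591).

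Of the proteases and proteoglycans that release, cut or hold chemokines, 18 of 20 were tested, of which 3 rose, 2 fell and 13 did not pass, with a median of 0.02. The share called was 27.8%, against 33.5% of all genes tested. The peptidase ANPEP averaged 11.5 ± 1.41 FPKM in shMETTL3 and 7.57 ± 0.949 FPKM in shCon and rose by 0.72 (SE 0.12, edgeR adjusted p = 0.000614). MMP14, a membrane metalloprotease, averaged 131 ± 20.0 FPKM in shMETTL3 and 91.3 ± 16.7 FPKM in shCon and rose by 0.61 (SE 0.12, edgeR adjusted p = 0.00177). DPP4, which trims the amino terminus of CXCL10, CXCL11 and CCL5, averaged 8.74 ± 0.647 FPKM in shMETTL3 and 12.5 ± 1.02 FPKM in shCon and fell by 0.40 (SE 0.08, edgeR adjusted p = 0.00311). SDC2 fell by 0.28 and CTSL rose by 0.29, the last a call lost with library size alone (edgeR adjusted p = 0.114), in all 3 limma fits on FPKM (adjusted p = 0.134 to 0.242), and without shMETTL3 library A or B or shCon library B or C (edgeR adjusted p = 0.0745 to 0.136). ADAM10 and ADAM17, named after their values were seen because they shed CXCL16, had log2 fold changes of −0.16 (SE 0.08, edgeR adjusted p = 0.147) and 0.16 (SE 0.08, edgeR adjusted p = 0.172). Exons of CCL27, CXCL6, CCR10, CHUK, MAP3K14, NFKBIB, IKBKG, TNFAIP3, IRF1, IRF9, IFNGR2, IL6, IL1RAP, OSMR, DPP4, ADAM10 and ADAM17 overlap other genes, so their counts are less certain. With log2(FPKM + 1) without a filter, CCL11, IFNGR2, IL1RAP, DUSP1 and MMP14 also missed the threshold (limma adjusted p = 0.0654 to 0.110).

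**Figure D5:**
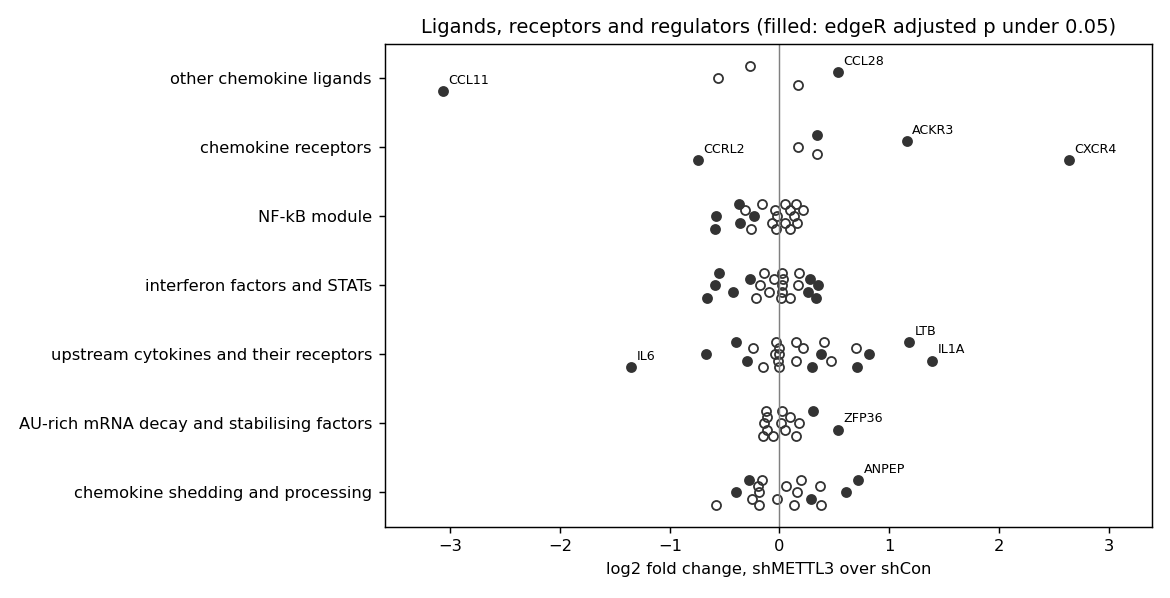
Log2 fold change, shMETTL3 over shCon, of each tested gene (points) in 7 lists of other ligands, receptors and regulators. Filled points passed the edgeR test at an adjusted p of 0.05, and some chosen genes are named. CCL11 lies at −3.07, IL6 at −1.35, ACKR3 at 1.16 and CXCR4 at 2.64, while most regulators lie near 0.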

How the data were processed

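The data are RNA sequencing libraries of 786-O cells, 3 per group. GRCh38, Salmon and STAR 2.7.10b appear in the submitters' processing notes, with no role for each. The strand setting of the counting is not given in the sources used. The authors deposited whole-number counts and FPKM values for 61860 genes, and no other value columns were present.

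Counts were tested as deposited in R 4.3.3 (limma 3.58.1, edgeR 4.0.16). The steps were filterByExpr, TMM scaling and edgeR's quasi-likelihood test, adjusted by Benjamini-Hochberg over all 18740 genes, with a threshold of 0.05. Standard errors came from the F statistic, and CPM values use TMM-adjusted totals. The procedure was tested on simulated counts. With these depths the spread between libraries limits precision for all but weakly expressed genes. Libraries within a group differed beyond sampling noise (15.2 to 57.3 in chi-square per degree of freedom), so none was merged. Positions and transcript features came from GENCODE 29, in which 58308 identifiers were found, with motif letters counted in 1 transcript per gene. Promoters came from RefSeq.

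The members, gene lists, tests and alternatives were chosen with earlier results of these data known. Genes were named if they were METTL3, members, genes overlapping or neighbouring members, or the 4 nearest in profile to CCL5 and to CXCL16. From each list, up to 5 genes of smallest p that were called and averaged 0.5 CPM or more, and up to 3 of the highest FPKM among the rest, could be named, and not all of them are printed. Some genes that met this rule or stand in a list are not reported here. IL1A, TNF, CSF3, TNFAIP3, NFKBIZ, ADAM10, ADAM17, CXCL9, CXCL12 and the receptors with few counts fall outside that rule and were named after their values were seen. Alternatives were other size factors, library size alone, DESeq2 1.42.0, limma-voom, other filters, log2 FPKM, the column letter as a block, and leaving out each library.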

Additional observations from a re-analysis of the deposited data

How the results depend on the processing

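CCL5 and CXCL16 were chosen for their falls in these same libraries, so their ranges are a description and not a test. METTL3, CCL5 and CXCL16 stayed below 0 in all 16 alternatives, with log2 fold changes of −1.91 to −1.63, −2.29 to −1.97 and −1.60 to −1.28. CXCL1 (−1.10 to −0.53), CXCL2 (−0.82 to −0.23), CXCL3 (−1.06 to −0.39), CXCL5 (−0.63 to −0.47) and CXCL8 (−0.48 to −0.05) did too, as did CXCL11 (−1.57 to −0.20) in the alternatives whose filter kept it. CCL2 turned to 0.03 without shMETTL3 library A, 0.20 without shMETTL3 library B and 0.08 without shCon library C, and lay at −0.39 without shMETTL3 library C. The count of the 7 members called, 3 in the edgeR fit, was 1 in DESeq2, 5 without a filter on counts and 1 with log2(FPKM + 1) without a filter. It ran from 1 to 7 when 1 library was left out, with 1 without shMETTL3 library A or B and 7 without library C. With the column letter as a replicate block it was 5, but same-letter libraries deviated together only weakly (correlations −0.0185, −0.0493 and 0.169, against −0.122 to 0.144 for other letters), so the letters were not taken as pairs. The block called 6985 genes, against 6270.

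With log2(FPKM + 1) without a filter, called genes numbered 1 of the other ligands (2 in the edgeR fit), 5 interferon factors (9), 4 upstream cytokines (10) and 1 AU-rich factor (2). A filter of 1 CPM removed CCL11 and left 1 other ligand. AU-rich factors numbered 4 with library size alone and 1 to 3 when 1 library was left out. Shedding genes, 5 in the edgeR fit, numbered 9 with library size alone and 9 with both filtered FPKM fits. Library size alone moved the median of all genes to −0.11 and the share of calls that were higher to 29.6%, against 49.4% with TMM. The cause of the other shifts was not tested. Of 37 called list genes, 20 kept their call in every alternative in which they were tested and none reversed. CXCL10, CXCR1, CXCR2, CXCR3 and CXCR6 are limited by their few counts.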
